A study of Mus musculus with 6 samples.

Results

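Of 26903 genes counted in the renal cortex of aging mice, 9 were followed here. They are the coactivator genes *Ppargc1a* and *Ppargc1b*, the peroxisome proliferator-activated receptor (PPAR) genes *Ppara*, *Ppard* and *Pparg*, the estrogen-related receptor genes *Esrra*, *Esrrb* and *Esrrg*, and the mitochondrial transcription factor gene *Tfam*. They were chosen by name, as nuclear receptors and coactivators around PRDM16, and all 9 were found by symbol in each of the 6 libraries. The libraries came from 3 wild type (WT) mice and 3 mice with a global knockout (KO) of *Prdm16*, all 9 months old and labelled male, 1 mouse per library. In the methods of the study, exon 2 of *Prdm16* was removed by CRISPR-Cas9, with a frameshift after it, in a global knockout. Digested cortex was captured in microwells (BD Rhapsody), where each transcript is tagged near its 3' end with a unique molecular identifier (UMI). The count of a gene in the summed cells of a class is given as CPM, its UMIs scaled to the total UMIs of that class in that library.

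PPARs and estrogen-related receptors are nuclear receptors, transcription factors with a ligand pocket. PPARs bind DNA as pairs with retinoid X receptors and are switched on by fatty acids. The estrogen-related receptors bind as monomers or dimers, act without a natural hormone, and drive genes of oxidative phosphorylation. PGC-1alpha (*Ppargc1a*) and PGC-1beta (*Ppargc1b*) do not bind DNA themselves. They dock on these receptors and raise transcription of genes for mitochondria and fatty acid oxidation, among them *Tfam*, whose product packs and transcribes mitochondrial DNA. In the kidney, the tubule segments that move the most salt are rich in mitochondria and depend on such oxidation, whereas PRDM16 is best known as a partner of PGC-1alpha in brown fat.

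The 6 libraries kept 28488 cells, between 3538 and 6276 each, with 23107708 to 35366031 UMIs per library. Barcodes with more than 50% of their UMIs from mitochondria had been left out, and retained cells still had a median of 19.1% to 29.4%. Of 69056 barcodes within the bounds on UMIs and genes, 28488 remained after this limit and the removal of doublets. No 2 libraries shared more than 2 cell barcodes. Against their male label, WT replicate 2 and KO replicate 1 carried *Xist*, the transcript of the inactive X chromosome (297 and 306 CPM, elsewhere at most 0.216), and almost no UMIs of 4 Y-linked genes (0.0566 and 0.0613 CPM, elsewhere at least 110). *Prdm16* itself had 32.4, 26.7 and 27.1 CPM in the WT libraries against 21.04, 24.9 and 23.5 in KO, a log2 difference of −0.29 (SE 0.12, edgeR adjusted p = 0.326). A 3' tag does not read exon 2, so this level does not check the deletion. The comparison covered 13 cell classes, those whose every library held 10 cells or more, each named from its markers, from 11 to 221 cells per library in the proximal tubule to 553 to 1602 in podocytes.

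Promoter sequence was read for the members from RefSeq windows on GRCm38.p6 that run from 250 bases before to 50 bases after a gene start, and was found for every member other than *Ppargc1b*. A pair of windows is shown, that of the member that passed the test between genotypes and that of *Tfam*, which did not. The capitals in the first mark the core of the cyclic AMP response element, TGACG, read on the other strand as CGTCA, the kind of site through which CREB acts on *Ppargc1a* in liver and muscle. The capitals in the second mark CCGGAAG, an ETS element of the kind bound by GABPA on genes of mitochondria.
Ppargc1a, chr5:51567676-51567975, minus strand: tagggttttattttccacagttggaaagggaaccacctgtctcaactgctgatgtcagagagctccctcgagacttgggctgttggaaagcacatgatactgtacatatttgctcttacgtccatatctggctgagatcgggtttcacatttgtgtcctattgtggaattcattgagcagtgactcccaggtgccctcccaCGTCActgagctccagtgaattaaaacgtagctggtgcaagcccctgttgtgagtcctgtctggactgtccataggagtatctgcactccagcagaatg
Tfam, chr10:71237995-71238294, minus strand: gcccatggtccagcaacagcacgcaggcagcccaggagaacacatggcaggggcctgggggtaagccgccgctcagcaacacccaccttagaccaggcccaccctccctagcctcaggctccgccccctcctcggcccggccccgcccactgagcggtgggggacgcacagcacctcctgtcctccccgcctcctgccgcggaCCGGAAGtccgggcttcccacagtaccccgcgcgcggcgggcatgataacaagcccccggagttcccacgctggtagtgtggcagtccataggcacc
TGACG or CGTCA was present in 20.8% of 32851 such windows, and also in windows of *Esrrb*, *Ppara* and *Ppard*. The full cyclic AMP response element TGACGTCA was in 1.79% of windows and in no member. Binding of CREB to the marked copy was not tested. CCGGAAG or CTTCCGG was in 8.86% of windows and, of the members, in *Tfam* alone. The nuclear receptor core site AGGTCA, searched on both strands, was in 16.3% of windows and in 2 windows of *Pparg*. The full estrogen-related receptor element TNAAGGTCA was in 1.28% and in no member. The *Ppargc1a* window covers the outermost of its annotated starts. Its other protein-coding starts, at 51553891 and 51553922, lie outside the window, and 3' tags do not show which start a transcript used. The *Tfam* window is set on the RefSeq start at 71238044. GENCODE has protein-coding starts further out, at 71238280, so most of this window, the marked element included, lies inside the gene as GENCODE draws it.

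By gene body (GENCODE vM21, GRCm38), *Ppargc1a* lies at chr5:51454250-51567726 on the minus strand, *Esrra* at chr19:6910977-6921813 (minus), *Esrrb* at chr12:86361117-86521628 (plus) and *Esrrg* at chr1:187608791-188214885 (plus). *Ppara* lies at chr15:85734983-85802819, *Ppard* at chr17:28232700-28301474 and *Pparg* at chr6:115360951-115490399, all on the plus strand. *Tfam* lies at chr10:71225464-71238280 and *Ppargc1b* at chr18:61298136-61400431, both on the minus strand.

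*Ppargc1a*, the coactivator gene induced by cold, fasting and exercise, was a tubule transcript. In WT it stood at 228 ± 42.3 CPM in principal cells (SD, n = 3), 211 ± 34.1 in the thick ascending limb, 183 ± 16.2 in intercalated cells, 179 ± 16.3 in the distal convoluted tubule and 170 ± 22.4 in the connecting tubule. The ranges of neighbouring classes overlapped throughout this series, so no order among these 5 can be read. Thin limb and parietal cells had 111 ± 51.2 CPM and macula densa cells, the salt sensor of the distal nephron, 66.7 ± 4.35 CPM. The proximal tubule had 47.1 ± 8.12 CPM from 122 UMIs, which did not reach the macula densa range. Podocytes and macrophages were lowest at 8.87 ± 1.46 and 8.55 ± 3.89 CPM. After every cell was thinned to 2000 UMIs, 26.2% to 31.6% of WT principal cells held a *Ppargc1a* UMI against 1.57% to 2.01% of WT podocytes, a share far below it. The intercalated cells held 2 clusters with type A markers such as *Slc4a1*, at 248 and 172 CPM, and 2 with type B markers such as *Slc26a4*, at 196 and 148 CPM, so the types were not apart.

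*Ppargc1b*, the sister coactivator, had another pattern. It was highest in the thick ascending limb at 40.8 ± 2.14 CPM, followed by stroma and mesangium at 32 ± 12.3 CPM, whose range overlapped. Principal cells, among the highest classes for *Ppargc1a*, had 5.97 ± 0.503 CPM of *Ppargc1b*, and only macrophages were lower at 4.31 ± 1.44 CPM. The distal convoluted tubule had 18.9 ± 2.11 CPM and intercalated cells 19.9 ± 5.32 CPM.

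**Figure D1:**
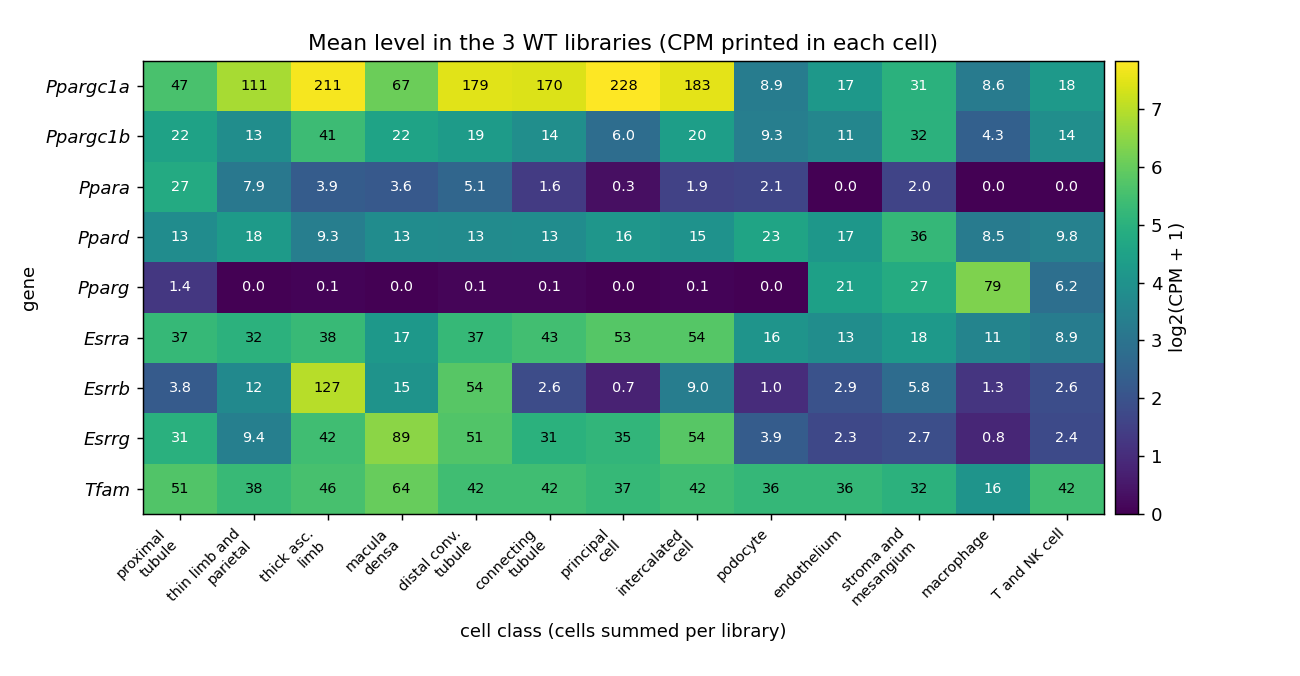
Mean level of the 9 genes (rows) in 13 cell classes (columns) over the 3 WT libraries, coloured by log2(CPM + 1) with the CPM printed in each field. *Ppargc1a* is brightest in principal cells and the thick ascending limb, at 228 and 211 CPM, *Esrrb* in the thick ascending limb at 127 CPM, *Pparg* in macrophages at 79.3 CPM, while *Tfam* varies little.

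The 3 estrogen-related receptors divided the nephron unevenly. *Esrrb*, which in other tissues marks early embryo cells and the inner ear, was highest in the thick ascending limb, then in the distal convoluted tubule. Its WT libraries had 126, 127 and 127 CPM in the thick ascending limb. In the distal convoluted tubule they had 50.9, 57.1 and 55.4 CPM, with no overlap. Macula densa cells followed at 15.1 ± 1.12 CPM, again without overlap, and principal cells had 0.695 ± 0.635 CPM. Within the limb, the cluster led by *Cldn10* had 146 CPM and the cluster led by *Cldn16* 93.5 CPM. *Esrrg*, a receptor gene of oxidative tissues such as heart and kidney, was highest in macula densa cells, with WT libraries at 95.1, 78.8 and 92.0 CPM. Intercalated cells came second at 54.3 ± 2.40 CPM, below every macula densa library, and the distal convoluted tubule at 50.8 ± 4.96 CPM and the thick ascending limb at 42.5 ± 4.08 CPM overlapped with the class above each. Among the intercalated clusters, those with type A markers had 94.2 and 53.0 CPM and those with type B markers 53.7 and 35.3 CPM. *Esrrg* was at 3.90 ± 1.91 CPM or less in podocytes, stroma, endothelium, macrophages and T cells.

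*Esrra*, the most widely used of the receptors, was spread over the tubule. Intercalated cells had 54.0 ± 4.09 CPM, principal cells 53.4 ± 8.49, the connecting tubule 43.4 ± 7.72, the thick ascending limb 38.2 ± 6.96, the proximal tubule 37.4 ± 7.58 and the distal convoluted tubule 37.2 ± 5.12 CPM, each range overlapping the next. Macula densa cells, the top class for *Esrrg*, were at 16.9 ± 12.2 CPM, and podocytes at 15.7 ± 3.10 CPM.

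**Figure D2:**
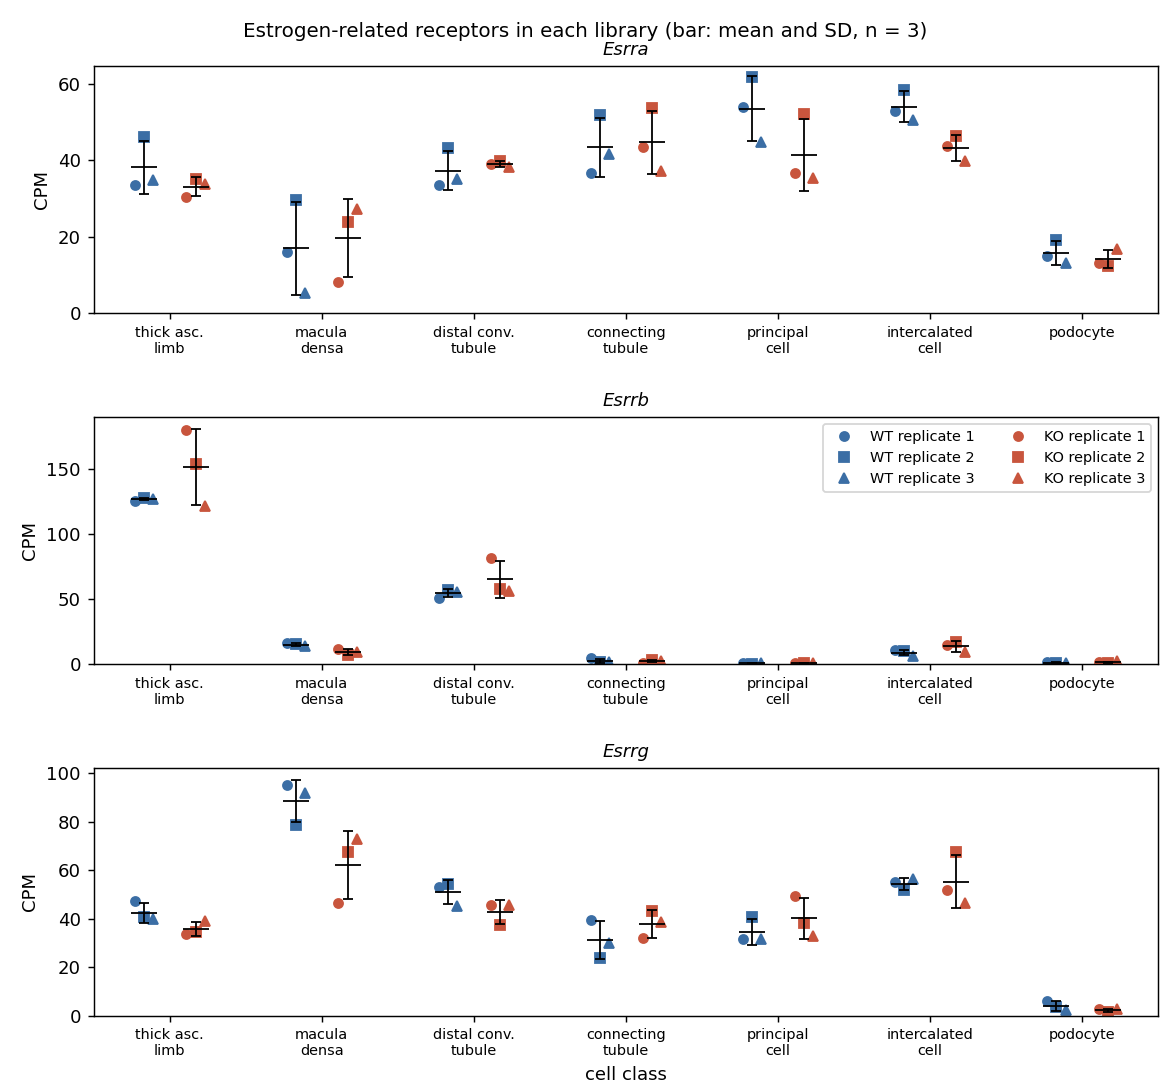
CPM of *Esrra*, *Esrrb* and *Esrrg* (3 panels, each from 0) in 7 classes, 1 point per library, blue for WT and red for KO, with the mean and SD (n = 3). *Esrrb* goes from the thick ascending limb to near 0 in connecting tubule and principal cells, *Esrrg* peaks in macula densa, and *Esrra* is lowest in macula densa and podocytes.

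The PPAR genes lay in other cells. *Ppara*, the receptor that runs fatty acid oxidation in liver and proximal tubule, had 16.8, 38.9 and 24.9 CPM in the proximal tubule of the WT libraries, from 73 UMIs. The next class, thin limb and parietal cells at 7.88 ± 6.27 CPM, stayed under all of them. *Ppara* was at 5.06 ± 0.867 CPM in the distal convoluted tubule and at 0.262 ± 0.229 CPM in principal cells, and had no UMI in WT endothelium, macrophages or T and NK cells. *Ppard*, a receptor found in most tissues, was highest in stroma and mesangium at 36.1 ± 11.7 CPM and podocytes at 22.8 ± 4.73 CPM, which overlapped, and ranged from 8.52 to 18.3 CPM over the other classes. *Pparg*, the receptor of fat storage and of alternatively activated macrophages, had 99.6, 58.4 and 80.0 CPM in WT macrophages. Stroma and mesangium with 27.2 ± 9.41 CPM and endothelium with 20.9 ± 5.44 CPM came next and overlapped with each other, without reaching macrophages. In the tubule *Pparg* was nearly absent, from 0 to 1.40 CPM in every tubule class, and podocytes had no UMI of it.

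**Figure D3:**
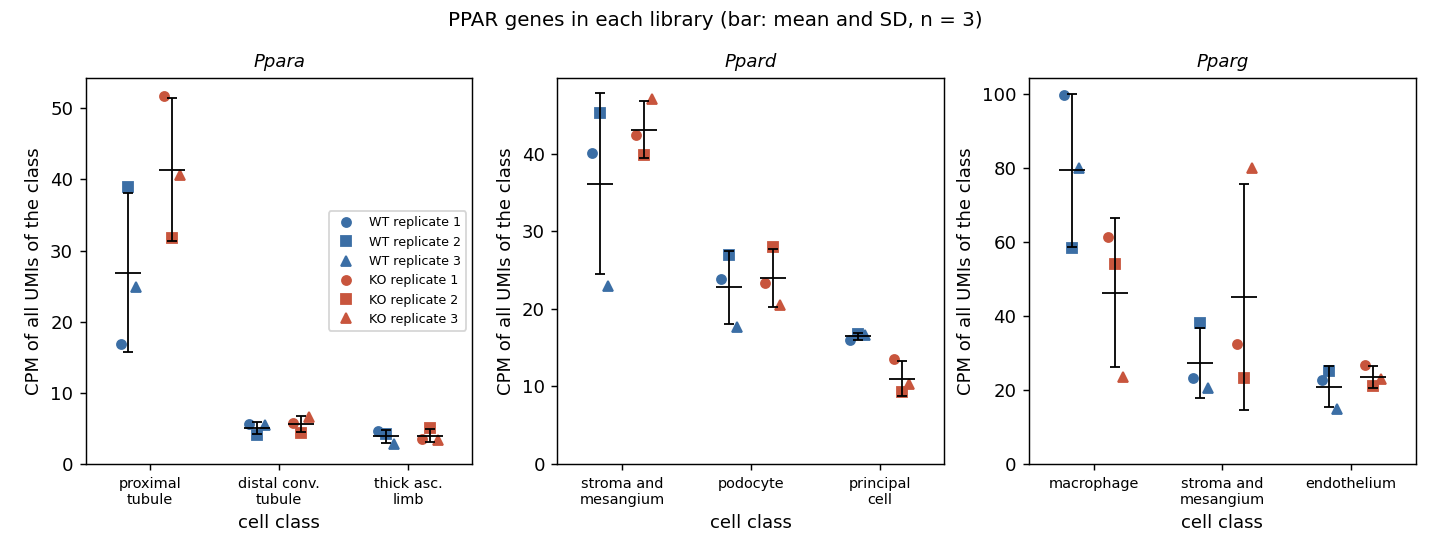
CPM of *Ppara*, *Ppard* and *Pparg* in 3 classes each, 1 point per library with mean and SD (n = 3), blue for WT and red for KO. *Ppara* is high in the proximal tubule only among the classes drawn, *Ppard* in stroma and mesangium, *Pparg* in macrophages, and WT and KO points overlap in these top classes.

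*Tfam* was the most even of the genes. It ranged from 31.5 to 63.8 CPM over 12 of the 13 classes, macula densa highest at 63.8 ± 18.8, and was at 15.8 ± 4.47 CPM in macrophages. Every class from macula densa down to stroma overlapped with the next in range.

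The genes closest in pattern were taken from 10261 genes by Pearson's r of log2(mean WT CPM + 1) over the 13 classes, a description over points that share libraries and depth. *Ppargc1a* was most like *Nme7* (r = 0.98, and 0.88 over the KO means), *Rap1gap* and *Ninl* (both 0.97). *Esrra* was most like *Osbpl1a* (0.98) and *Uqcr10*, a subunit of respiratory complex III (0.94). *Esrrg* was most like *Atp5g2*, a subunit of ATP synthase, *Mthfd1* and *Kif21a*, each at 0.98. *Esrrb* was close to *Fabp3* (0.94), a carrier of fatty acids, and *Umod* (0.92), the gene of uromodulin. *Ppara* followed *Reep6* (0.93) and *Grhpr* (0.91), and *Pparg* followed *Ifi211* (0.98). *Tfam* and *Ppargc1b* had the loosest matches, 0.92 for *Slc25a51* and 0.81 for *Kyat3*. Of the members, *Ppargc1a* was nearest in WT to *Esrra* (0.89, and 0.61 over the KO means) and *Esrrg* (0.84, and 0.87 over the KO means). *Prdm16* had its highest mean in principal cells at 59.1 ± 9.63 CPM, and endothelium at 47.1 ± 22.9 CPM overlapped in range. *Prdm16* had r = 0.69 with *Ppargc1a*, 0.58 with *Esrrg*, 0.54 with *Esrra* and −0.29 with *Pparg*.

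The comparison asked whether these regulators differ between genotypes in any class. Counts were summed per library and class and tested with edgeR's quasi-likelihood test. Of 117 pairs of member and class, 65 had enough counts to be tested and 52 did not. Of the 65, 1 passed an adjusted p of 0.05, against 1.5% of all tests over the 13 classes, and 9 had an unadjusted p under 0.05. Among all genes, such an unadjusted p was held by 1911 of 10335 in podocytes and 1839 of 10775 in the thick ascending limb. It was held by 1329 of 9575 in principal cells and 199 of 3053 in the proximal tubule. The WT and KO libraries did not overlap in 11 of the 65 pairs (16.4% over all genes). DESeq2 also gave 1 call, in principal cells, where it called 230 of 9575 genes. By class, the call was 1 of 6 members tested in principal cells (2.49% of genes), beside 0 of 8 in the thick ascending limb (4.32%), the distal convoluted tubule (0.968%) and intercalated cells (0.91%), 0 of 7 in the connecting tubule (2.8%) and 0 of 6 in podocytes (1.93%). The count was 0 of 5 in macula densa (1.02%), endothelium (0.194%) and stroma and mesangium (0.0516%), 0 of 3 in the proximal tubule (0.0328%), 0 of 2 in thin limb and parietal cells (0%) and 0 of 1 in macrophages (0.353%) and in T and NK cells (0.0257%). The groups were apart for 3 members in principal cells (18.7% of genes), 2 each in the thick ascending limb (21.7%) and proximal tubule (12.8%), and 1 each in the connecting tubule (16%), intercalated cells (16.2%), macula densa (14%) and podocytes (23.5%). In the sum over all cells 0 of 9 members passed (1.07% of genes did). By edgeR, 1 had an unadjusted p under 0.05, as did 2324 of 15178 genes. DESeq2 called 0 of the 9 members and 814 of 15178 genes. The groups were apart for 2 of the 9, *Ppargc1a* and *Esrra*, in that sum (18.6% of genes). In such a sum, fewer cells of a type and less RNA per cell cannot be told apart.

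*Ppargc1a* was lower in KO principal cells, the cells of the collecting duct that reabsorb sodium and water. The WT libraries had 217, 274 and 192 CPM and the KO libraries 119, 95.1 and 127 CPM, from 1730 and 430 UMIs. Every KO library lay under every WT library. The KO level was 0.511-fold that of WT, a log2 difference of −0.97 (SE 0.16, edgeR adjusted p = 0.00753), in a class where 2.49% of 9575 genes passed and 1.09% did so downward. With DESeq2 the difference was −0.96 (adjusted p = 0.000221). Without both libraries that carried *Xist*, it was −0.83 and the adjusted p was 0.0674, missing the threshold, whereas with *Xist* as a block it was 0.00609. Leaving out single libraries gave −1.09 to −0.83 with adjusted p-values of 0.00918 to 0.0443. The share of cells with a *Ppargc1a* UMI after thinning to 2000 UMIs was 28.9%, 31.6% and 26.2% in WT and 19.3%, 16.3% and 25.5% in KO (53.7%, 53.6% and 44.8% against 50.3%, 38.5% and 41.4% before thinning, with median depths of 4871.5 to 7952 UMIs). Between 23 and 123 shallower cells per library were left out. In podocytes the thinned share was 0.942% to 2.28% at median depths of 2663.5 to 5386 UMIs.

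**Figure D4:**
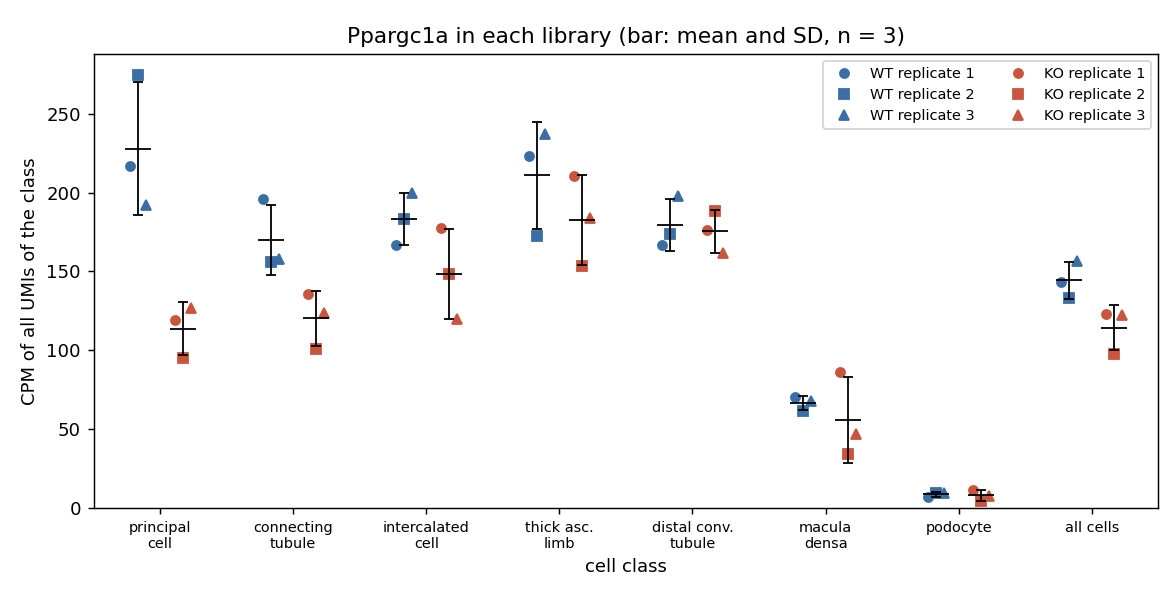
*Ppargc1a* in CPM (axis from 0) in 7 classes and in the sum of all cells, 1 point per library, with mean and SD (n = 3), blue for WT and red for KO. KO points lie under all WT points in principal cells, in the connecting tubule and in the sum, and the groups overlap in the other classes drawn.

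Several other readouts differed between the principal cells of WT and KO, and their part in the result was not tested. KO libraries held fewer principal cells, 143, 109 and 198 against 313, 304 and 344. The summed level of the 5 connecting tubule markers was 2373 to 3707 CPM in WT principal cells and 795 to 1457 CPM in KO, all 5 being detected, and the 10 intercalated markers summed to 130 to 192 and to 33.6 to 59.6 CPM. The 6 monocyte markers summed to 0.841 to 8.77 CPM in WT and 18.6 to 89.8 CPM in KO, with 2 of them at 0. The 9 principal cell markers overlapped, at 17660 to 19480 and 13460 to 24080 CPM. The 15 genes of dissociation stress summed to 9210 to 10970 CPM in WT and 11530 to 16700 CPM in KO, and 2 of them passed the test, *Jun* (log2 difference 0.88, adjusted p = 0.00758) and *Fos* (0.85, 0.0484), both early stress response genes. Of 9 corticosteroid-induced genes, *Fkbp5* passed (1.15, adjusted p = 0.0369), and of 15 circadian clock genes tested 0 did by edgeR (3 at an unadjusted p under 0.05, 2 by DESeq2). Of all 9575 genes tested in principal cells, 1329 had an unadjusted p under 0.05 by edgeR and DESeq2 called 230. The mitochondrial share of the UMIs was 21.8% to 25.8% in WT and 24.6% to 26.95% in KO. The principal cells split into 2 clusters at a finer resolution, tested apart after the data had been seen. In the smaller one *Ppargc1a* had 248, 352 and 248 CPM in WT against 144, 137 and 151 in KO (−0.96, adjusted p = 0.011). In the larger one it had 188, 154 and 119 CPM in WT against 105, 69.5 and 111 in KO (−0.63, adjusted p = 0.105). Barcodes with 10 to 99 UMIs, which hold free RNA rather than cells, had *Ppargc1a* at 228, 229 and 225 CPM in WT against 179, 118 and 200 in KO (two-sided exact permutation p = 0.1, the smallest that 3 against 3 allows, and 0.3 adjusted over the 9 genes).

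No other tubule class passed the test. The connecting tubule had 196, 156 and 158 CPM in WT against 136, 101 and 124 in KO, groups that did not overlap, with a log2 difference of −0.48 (SE 0.14, edgeR adjusted p = 0.107; −0.49 and 0.0226 with no filter on low counts). Thin limb and parietal cells had 111 ± 51.2 CPM in WT and 73.3 ± 17.4 in KO (−0.60, adjusted p = 0.858). Intercalated cells had 183 ± 16.2 CPM in WT and 148 ± 28.7 in KO (−0.28, adjusted p = 0.446), the thick ascending limb 211 ± 34.1 and 183 ± 28.5 (−0.22, 0.461), and the distal convoluted tubule 179 ± 16.3 and 175 ± 13.5 (−0.04, 0.955). The proximal tubule held 122 UMIs in WT and 4 in KO, from as few as 11 cells, and its difference of −1.87 had an adjusted p of 0.507 and was 0.11 once cells with more mitochondrial UMIs were let in. Over all cells *Ppargc1a* had 144 ± 11.6 CPM in WT and 114 ± 14.5 in KO (−0.31, adjusted p = 0.363).

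Whether the genotype effect differs between classes was tested by an interaction over the thick ascending limb, distal convoluted tubule, connecting tubule, principal and intercalated cells, with the library as a block. Of 8 members, 2 passed, *Ppargc1a* (adjusted p = 0.0232) and *Ppargc1b* (0.046), where 5.32% of 12129 genes did. For *Ppargc1a* the log2 difference in principal cells was below that of the distal convoluted tubule (by −0.95, SE 0.20, adjusted p = 0.0128) and that of the thick ascending limb (by −0.78, SE 0.20, 0.0204). Against intercalated cells (−0.73, 0.06) and the connecting tubule (−0.51, 0.346) it missed the threshold. The interaction of *Ppargc1a* was lost without WT replicate 2 (adjusted p = 0.118), KO replicate 1 (0.169) or KO replicate 2 (0.137), and at a mitochondrial limit of 30% (0.588), which left 8825 genes to test.

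**Figure D5:**
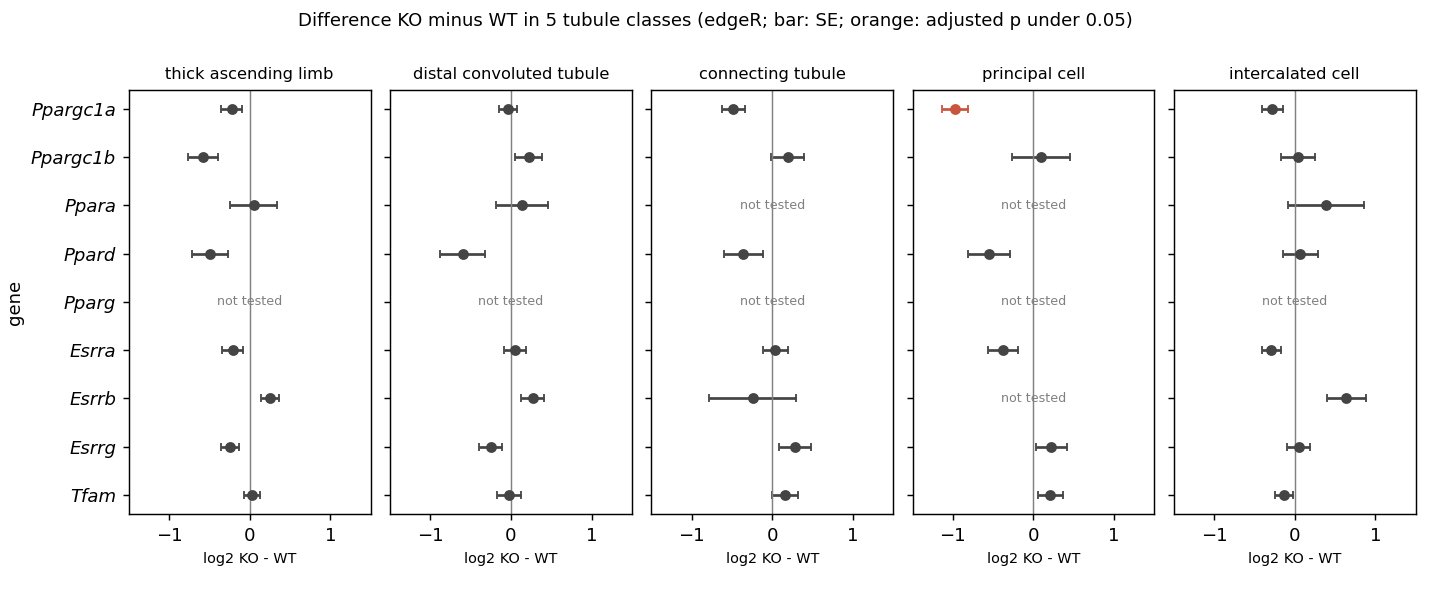
Log2 difference KO minus WT with its SE (edgeR) for the 9 genes in 5 tubule classes, on a shared axis. Only *Ppargc1a* in principal cells, in red, passed the adjusted threshold among the 5 classes, and genes with too few counts are written as not tested.

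*Ppargc1b* lay on either side of 0 in different classes, and no class passed the test with all libraries and the filter on low counts. The thick ascending limb had 38.3, 41.9 and 42.02 CPM in WT against 18.03, 36.6 and 26.9 in KO. All KO libraries were lower, KO replicate 1 most, and the log2 difference was −0.58 (SE 0.19, adjusted p = 0.118). It passed without KO replicate 2 (−0.83, adjusted p = 0.0204) and with no filter on low counts (−0.58, 0.000589), and over all alternatives it ran from −1.47 to −0.35 with adjusted p-values up to 0.415. Podocytes had 10.7, 8.41 and 8.68 CPM in WT against 14.8, 13.4 and 13.3 in KO, also without overlap (0.56, SE 0.18, adjusted p = 0.128). The connecting tubule stood at 0.19 and the distal convoluted tubule at 0.22 on the log2 scale. Beside the thick ascending limb these differences were larger by 0.83 (adjusted p = 0.0676) and 0.86 (0.141), so these pairs did not pass.

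Among the estrogen-related receptors 0 passed in any class by edgeR or DESeq2, and *Esrra* and *Esrrb* in intercalated cells and *Esrrg* in macula densa cells had an unadjusted p under 0.05. With classes from marker scores, *Esrrb* in the connecting tubule passed (−1.33, adjusted p = 0.0236), where it was otherwise at −0.24 (0.924) from 2.56 ± 1.73 CPM in WT and 2.36 ± 0.974 in KO. *Esrrb* in the thick ascending limb had 126, 127 and 127 CPM in WT against 180, 154 and 121 in KO, where the KO libraries spread around the tight WT values (0.25, SE 0.11, adjusted p = 0.297). In intercalated cells it had 8.96 ± 2.15 CPM in WT and 13.8 ± 4.12 in KO (0.64, adjusted p = 0.302). *Esrra* in intercalated cells had 53.0, 58.5 and 50.5 CPM in WT against 43.8, 46.4 and 39.7 in KO, without overlap (−0.29, SE 0.12, adjusted p = 0.343). *Esrrg* in macula densa cells had 95.1, 78.8 and 92.0 CPM in WT against 46.3, 67.6 and 72.8 in KO, also without overlap (−0.45, SE 0.21, adjusted p = 0.499), from 46 to 73 cells per library.

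Of the PPAR genes, *Ppard* in principal cells had 15.97, 16.8 and 16.6 CPM in WT against 13.5, 9.28 and 10.3 in KO, groups apart from each other (−0.55, SE 0.26, adjusted p = 0.382). Its difference was −0.49 in the thick ascending limb (adjusted p = 0.28) and −0.60 in the distal convoluted tubule (0.516). *Pparg* in macrophages had 79.3 ± 20.6 CPM in WT and 46.3 ± 20.03 in KO (−0.55, adjusted p = 0.688). *Ppara* had too few counts in the proximal tubule to be tested. *Tfam* had too few counts in macrophages to be tested. It differed by 0.70 on the log2 scale in the proximal tubule (51.5 ± 8.83 CPM in WT, 84.6 ± 18.1 in KO, adjusted p = 0.765). The KO libraries there held 2, 13 and 10 UMIs of *Tfam*, and the alternatives ran from 0.05 to 0.73. In all other classes tested *Tfam* differed by −0.23 to 0.21. In principal cells its groups did not overlap, KO being higher (0.21, SE 0.16, edgeR adjusted p = 0.631). The libraries had 38.25, 35.8 and 36.9 CPM in WT against 39.7, 46.4 and 41.7 in KO.

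Genes around these regulators were taken from lists, with further lists for the circadian clock, corticosteroid-induced genes and dissociation stress. Over all lists 54 of 1265 tests of a gene in a class passed (4.27%), beside 1.5% over all genes and classes and 4.32% over all genes in the thick ascending limb. Most of these calls lay in the further lists, with 20 higher and 5 lower in 158 tests for the circadian clock alone. *Per1* in podocytes counts in 2 lists. Of 25 PPAR target genes, 149 tests over the classes gave 4 higher and 2 lower calls, 4 of the 6 among the 17 targets tested in the thick ascending limb. In the thick ascending limb *Cd36*, a fatty acid transporter, was lower (47.9 ± 4.11 CPM in WT, 25.6 ± 5.10 in KO, log2 difference −0.91, adjusted p = 0.00334), as was *Cpt1a*, the gate of fatty acids into mitochondria (−0.39, 0.0476). *Fabp3* (0.44, 0.0145) and *Scd1*, a desaturase (1.21, 0.0417), were higher. *Fabp3* was also higher in the connecting tubule (0.83, 0.00844) and *Scd1* in macula densa cells (1.51, 0.0137). The median over the 17 PPAR targets tested in the thick ascending limb was 0.05, beside −0.005 over all genes. Of 16 estrogen-related receptor targets, 193 tests gave 1 call, *Vegfa* in principal cells, the gene of a vessel growth factor, with 301, 281 and 311 CPM in WT against 142, 176 and 160 in KO (−0.89, SE 0.14, adjusted p = 0.00588). The other 15 targets there, mostly enzymes of the citric acid cycle and respiratory chain, did not pass, and the median of all 16 was −0.09 beside −0.0018.

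Among the remaining lists, calls were most frequent for the circadian clock and corticosteroid-induced genes. Of 15 genes of mitochondrial biogenesis, *Top1mt*, the topoisomerase of mitochondrial DNA, was lower in podocytes (222 ± 31.1 and 124 ± 23.6 CPM, log2 difference −0.86, adjusted p = 0.0176), 1 call in 123 tests. Among 20 coactivators, corepressors and PRDM16 partners there were 3 calls in 201 tests, all upward. *Perm1*, a muscle partner of PGC-1alpha and the estrogen-related receptors, was higher in the distal convoluted tubule (2.74 ± 0.724 and 8.44 ± 2.44 CPM, 1.64, adjusted p = 0.0362), and *Pprc1*, the third PGC-1 family gene, in the thick ascending limb (3.99 ± 0.930 and 8.07 ± 0.744 CPM, 0.99, 0.0266), with *Cebpb* (0.58, 0.0112). Upstream regulators of PGC-1alpha such as *Prkaa1* and *Sirt1* gave 0 calls in 133 tests by edgeR (8 at an unadjusted p under 0.05, 0 by DESeq2), and the retinoid X receptors 0 in 17 (1 and 0). An unadjusted p under 0.05 was also held by 1839 of all 10775 genes in the thick ascending limb and 1329 of 9575 in principal cells. Of the 8 adipocyte and thermogenic genes, *Ucp1* and *Adipoq* among them, none had enough counts to be tested in a class. The circadian clock list gave 20 higher and 5 lower calls in 158 tests, with *Arntl* at −3.26 (adjusted p = 0.00901) and *Per2* at 1.70 (0.000389) in the thick ascending limb. Corticosteroid-induced genes gave 9 higher and 3 lower in 109, and dissociation stress 7 higher and 0 lower in 194. Their part in the values of the members was not tested.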

How the data were processed

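The deposited files held raw UMI counts per gene and barcode for 6 libraries, made by the authors with the BD Rhapsody whole transcriptome pipeline on mm10; the labels name Scanpy 1.8. Cell types were rebuilt here from markers. Barcodes with 500 to 60000 UMIs, 200 to 8000 genes and at most 50% mitochondrial UMIs were kept, and the 6% with the highest Scrublet scores were removed in each library, since the automatic threshold marked 0.075% to 0.292%. Clusters (scanpy 1.11.5, 2000 variable genes without the members, 30 components, 15 neighbours, Leiden resolution 1.0) gave 27 groups. Counts were summed per library and class and tested with edgeR 4.0.16 (TMM, quasi-likelihood, filterByExpr with a minimum count of 10, Benjamini-Hochberg within a class, R 4.3.3) in classes of 10 or more cells per library, with DESeq2 1.42.0 as an alternative. The script was tested on simulated data. Members, lists and tests were chosen with earlier results of these data known. The genes named are the members, list genes that passed, and genes among the 3 most alike in pattern, of which 1 is not reported here. Replicates are separate mice by the labels. UMI totals ranged from 96382945 to 121198131 per library before cells were chosen, and intervals of precision rest on 3 libraries per group. B cells and neutrophils had too few cells in a library to be tested.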

Additional observations from a re-analysis of the deposited data

Results flagged for a closer look

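For 2 genes the genotype effect differed between the 5 tubule classes by the interaction test of edgeR. For *Ppargc1a* the adjusted p was 0.0232, and the log2 difference KO minus WT ran from −0.97 in principal cells to −0.04 in the distal convoluted tubule. For *Ppargc1b* it was 0.046, with −0.58 in the thick ascending limb and 0.22 in the distal convoluted tubule. The *Ppargc1b* interaction missed the threshold without WT replicate 2 (adjusted p = 0.199), WT replicate 3 (0.156), KO replicate 1 (0.322) or KO replicate 3 (0.134), and at a mitochondrial limit of 30% (0.281).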

How the results depend on the processing

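The members past the threshold in the class tests numbered 1, and 2 with classes from marker scores (also *Esrrb* in the connecting tubule), 3 with no filter on low counts (also *Ppargc1a* in the connecting tubule and *Ppargc1b* in the thick ascending limb), 0 in the 4 libraries without *Xist*, and 1 to 2 when single libraries were left out (2 without KO replicate 2). Same-numbered replicates did not all deviate together (in the sum over all cells r = 0.215, −0.0619 and 0.212). Whether they share more than the number cannot be told from these values. With that number as a replicate block the count was 1 and *Ppargc1a* in principal cells was at −0.96. In the sum over all cells the count was 0 under every alternative run. Tests of a list gene in a class past the threshold numbered 54, and 20 at a mitochondrial limit of 30%, 167 with no filter, and 34 to 45 when single libraries were left out (34 without KO replicate 1). The interaction held for 2 members, for 0 at the 30% limit, and for 0 to 2 when single libraries were left out (0 without WT replicate 2 or KO replicate 1). *Ppargc1a* in principal cells was at −0.97, at −0.83 in the 4 libraries without *Xist*, at −0.63 in the larger of its clusters, and at −1.09 to −0.83 when single libraries were left out. In the distal convoluted tubule it was at −0.04, at −0.09 to 0.04 when single libraries were left out (0.04 without WT replicate 3), and in the proximal tubule at 0.11 with no mitochondrial limit. The causes of these changes were not tested. Clusters and intercalated cells without their deepest cluster were alternatives chosen after seeing the data. The highest class of *Ppargc1a* in WT moved to the distal convoluted tubule at the 30% limit and to the thick ascending limb with marker scores, with CPM of nuclear-encoded genes or without WT replicate 2. Levels moved by over 1.5 times with the mitochondrial limit. At 30% and with no limit, *Esrrb* in the thick ascending limb was at 241 and 79.8 CPM (127 as reported) and *Ppara* in the proximal tubule at 45.1 and 13.3 CPM (26.9), and *Ppargc1b* in the thick ascending limb was at 94.4 CPM at 30% (40.7). With CPM of nuclear-encoded genes these were at 223, 41.8 and 71.8 CPM.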
